A study of Mus musculus with 24 samples.

Results

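The 39 Hox cluster genes are the members described here, out of 46078 genes measured in mouse brain RNA. They were taken by name alone, as every gene whose symbol is Hoxa, Hoxb, Hoxc or Hoxd followed by a number, and no measured value entered the choice. All 39 are annotated as protein-coding. The question was how their levels run across 24 libraries, beside Cbln3, a gene of cerebellar granule neurons, and Emx2, a gene of the cerebral cortex and hippocampus.

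RNA came from the brains of C57BL/6N mice that were wild type (WT) or carried a Shank2 knock-out (KO), a loss of a scaffold protein of excitatory synapses. Mice were naïve, with no drug treatment, and were taken at postnatal day 14 (P14) or 25 (P25). The 4 groups (P14 WT, P14 KO, P25 WT, P25 KO) hold 6 libraries each, and the labels mark replicates 4 to 6 of each as a second batch; replicates 1 to 3 carry no mark and are called the first batch. The labels give the tissue only as brain (the design text says whole brain), and no source used here gives the removed exon, the sex or the dissection. A library is named by age, genotype and replicate, so that P14 WT 3 is replicate 3 of that group.

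Hox genes encode homeodomain transcription factors that give positions along the body axis their identity. They lie in 4 clusters, and genes at the same place in different clusters share a paralog number. Low numbers have their front limit of expression in the hindbrain and higher numbers progressively further back along the spinal cord, while forebrain and midbrain develop without them. Many hindbrain and spinal neurons keep their Hox genes on after birth.

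The clusters lie on chromosome 6 (Hoxa, 52155590 to 52260880), chromosome 11 (Hoxb, 96194316 to 96368256), chromosome 15 (Hoxc, 102921103 to 103036852) and chromosome 2 (Hoxd, 74668310 to 74765142) of GRCm38, by the GENCODE M21 annotation. Values are reads over a gene's exons, untranslated parts included, divided by the library's size factor. Exons of 16 of the 39 members are overlapped by another gene, among them Hoxb5 by Hoxb5os, and Hoxd3 and Hoxd4 share exons with each other. Whether counting used strand is not known here, so reads of such overlapping genes cannot be told apart, whereas Hoxa5, Hoxb8, Hoxc4, Hoxb6, Hoxb7, Hoxd1 and Hoxc9 have no such overlap.

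Sequence upstream of a start site was in hand for 22 of the 39 members, from RefSeq on GRCm38.p6. The windows of 4 members are shown because Hoxa2, Hoxc4, Hoxa5 and Hoxb8 stand for low, middle and high paralog numbers whose levels part from each other below. Each is the 250 bases before the start site, read 5′ to 3′ on the gene's own strand. Capitals mark 2 short motifs searched on both strands: TGATNNAT, a pattern of joint Pbx and Hox binding, and TTTATNG, a pattern of posterior Hox and Cdx binding.
Hoxa2 (chr6:52164832-52165081, minus strand): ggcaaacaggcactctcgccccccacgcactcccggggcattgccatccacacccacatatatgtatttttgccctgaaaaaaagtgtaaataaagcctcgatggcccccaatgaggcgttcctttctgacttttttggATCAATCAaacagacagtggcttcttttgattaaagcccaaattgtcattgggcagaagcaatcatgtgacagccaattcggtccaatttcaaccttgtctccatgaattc
Hoxc4 (chr15:103034145-103034394, plus strand): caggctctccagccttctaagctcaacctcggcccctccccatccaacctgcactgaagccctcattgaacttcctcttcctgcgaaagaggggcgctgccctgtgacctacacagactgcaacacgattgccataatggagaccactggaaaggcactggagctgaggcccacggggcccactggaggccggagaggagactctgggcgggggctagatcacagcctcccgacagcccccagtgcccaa
Hoxa5 (chr6:52204588-52204837, minus strand): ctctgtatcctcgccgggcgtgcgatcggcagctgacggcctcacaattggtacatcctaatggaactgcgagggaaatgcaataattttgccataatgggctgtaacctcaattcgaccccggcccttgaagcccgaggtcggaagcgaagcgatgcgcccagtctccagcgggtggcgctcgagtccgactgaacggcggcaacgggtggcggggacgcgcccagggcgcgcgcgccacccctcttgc
Hoxb8 (chr11:96281655-96281904, plus strand): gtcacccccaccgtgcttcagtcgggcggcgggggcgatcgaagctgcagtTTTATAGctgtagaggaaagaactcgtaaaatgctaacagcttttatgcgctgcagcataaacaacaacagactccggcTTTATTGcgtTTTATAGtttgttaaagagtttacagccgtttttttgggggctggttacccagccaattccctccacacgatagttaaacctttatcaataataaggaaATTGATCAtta

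TGATNNAT was found in 4 of the 22 windows (18.18%) and in 7.69% of 32817 promoter windows of the same length. TTTATNG was found in 2 of the 22 (9.09%) and in 9.81% of all windows. Hoxb8 held 1 match of the first and 3 of the second, Hoxa2 held 1 of the first, and neither pattern occurred in the windows of Hoxc4 and Hoxa5. The windows of the 22 members had a median GC content of 59.2% against 52.4% over all windows. Their median ratio of observed to expected CpG was 0.757 against 0.373. A match describes letters and is no sign of binding.

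Sequencing depth was similar throughout, with 27552844 to 40787586 reads over genes per library. The smallest amount that could be told from 0 (3 reads) corresponds to a value of 2.45 to 3.64, depending on the library. Shank2, the targeted gene, was read first. Its level in P14 WT ran from 3932 to 12778 (median 7815) and in P14 KO from 1899 to 6458 (median 3919), so the groups overlapped. In P25 WT it ran from 6382 to 13358 (median 8930) and in P25 KO from 2217 to 5153 (median 4427), with no overlap. The KO mean was 51.25% of the WT mean at P14 (2-sided exact permutation test within batches, p = 0.025, n = 6 against 6) and 40.6% at P25 (p = 0.005, the smallest p that test can give). At P14 the p reached 0.07 when 1 library was left out. The single label of brain covers libraries with very different levels of regional genes, as Cbln3 and Emx2 show further on.

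Hox RNA was concentrated in 4 of the 24 libraries, 1 in each group and all in the first batch. Summed over the 39 members, the value was 2027 in P14 WT 3, 882 in P14 KO 1, 833 in P25 KO 2 and 248 in P25 WT 3. The other 20 libraries lay between 3.42 and 24.9, with a median of 8.9. No library lay between 24.9 and 248, and none of the 12 libraries of the second batch was above 100.

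In reads, the 4 libraries held 4076 of the 4284 Hox reads of the series (95.14%). As a share of the library this was 65.95 CPM in P14 WT 3 and 29.1, 27.1 and 7.72 CPM in P14 KO 1, P25 KO 2 and P25 WT 3. The other 20 libraries had 4 to 27 Hox reads each, spread over 3 to 13 members. Just above the rest of the 20 stood P25 WT 6 at 24.9 and P14 WT 5 at 23.6. In P25 WT 6 the reads were led by Hoxa2 at 5.74, with Hoxa3 and Hoxb3 at 3.83 each, and in P14 WT 5 by Hoxd8 at 14.9.

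**Figure D1:**
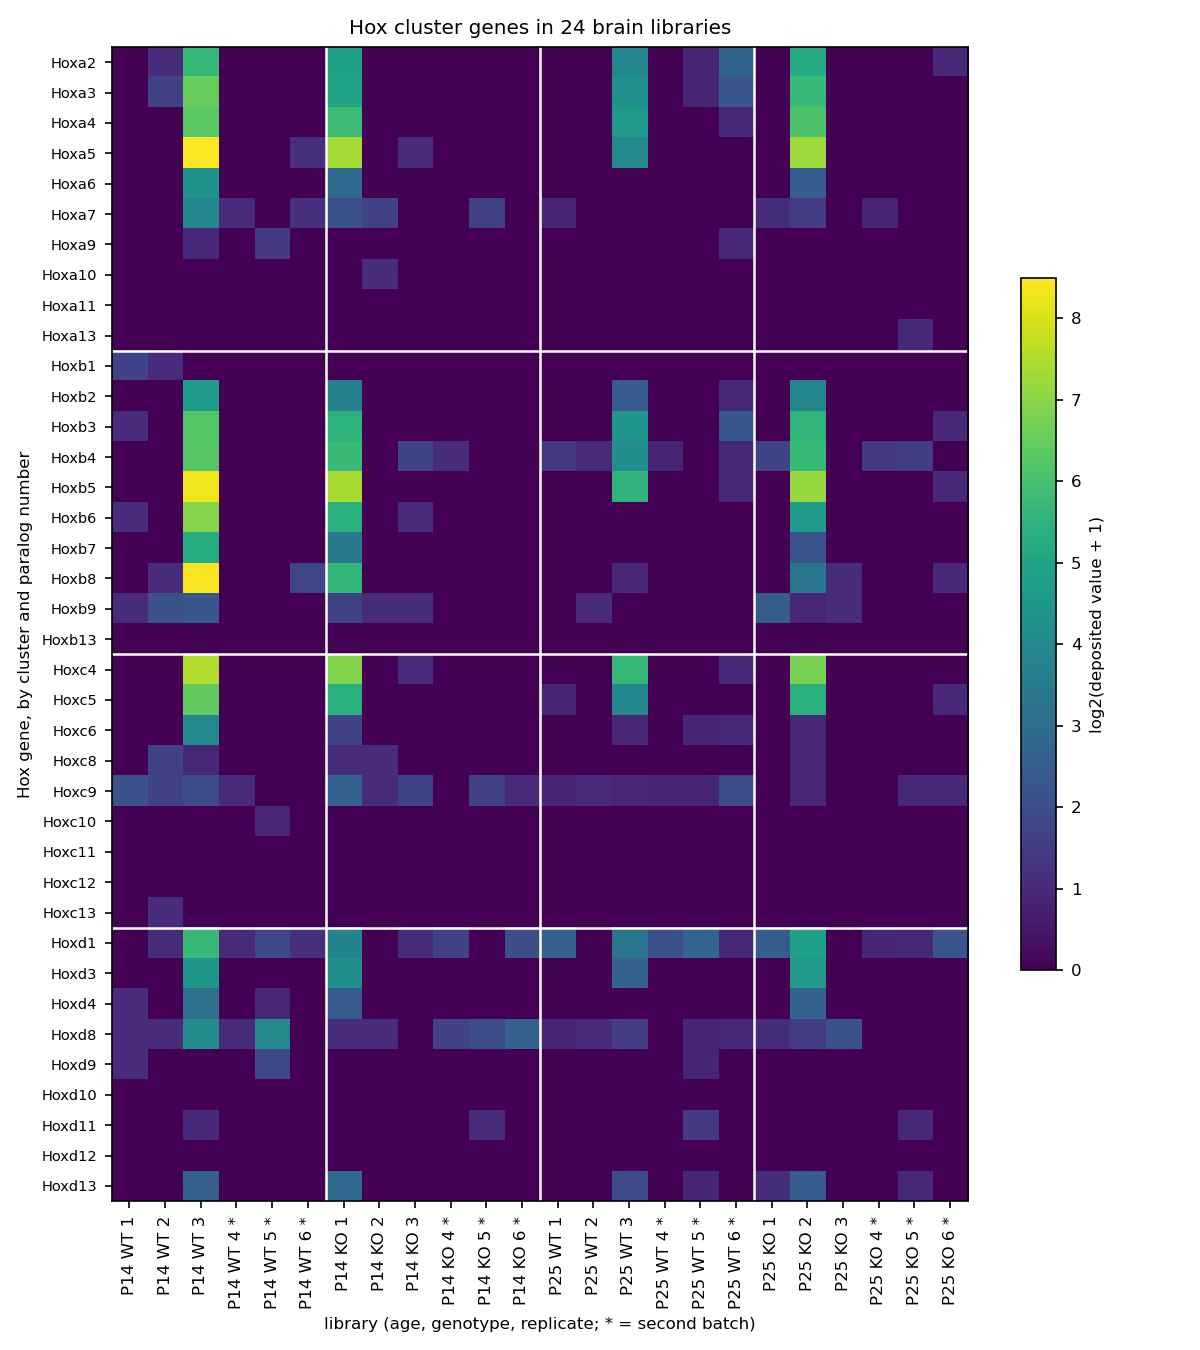
Log2(deposited value + 1) of 38 Hox genes (rows, by cluster and paralog number) in the 24 libraries (columns, by group; * marks the second batch). P14 WT 3, P14 KO 1, P25 WT 3 and P25 KO 2 are bright over paralog numbers 1 to 5, and the other 20 libraries are near 0.

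Of the 39 members, 20 had a mean value of at least 1 over all libraries, 13 had a mean below 1 with at least 1 read, and 6 had no read in any library (Hoxa11, Hoxb13, Hoxc11, Hoxc12, Hoxd10 and Hoxd12). Only 4 had a mean of at least 10: Hoxa5 (28.8), Hoxb5 (28.1), Hoxc4 (18.9) and Hoxb8 (17.0). Hoxa5 (ENSMUSG00000038253) lies at chromosome 6, 52201754 to 52204587, Hoxb5 (ENSMUSG00000038700) at chromosome 11, 96303336 to 96306121, Hoxc4 (ENSMUSG00000075394) at chromosome 15, 103018934 to 103036852, and Hoxb8 (ENSMUSG00000056648) at chromosome 11, 96281905 to 96285315. These 4 passed that minimum through the 4 libraries alone, since their highest value in the other 20 was 1.21, 0.96, 1.13 and 2.42.

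Paralog numbers 1 to 3 are the Hox genes expressed furthest forward, in the segments of the hindbrain. Hoxd1 was at 51.2, 13.0, 8.92 and 27.8 in P14 WT 3, P14 KO 1, P25 WT 3 and P25 KO 2, the order used for all members that follow. It was also the member with most reads elsewhere, with 40 reads over 15 of the other 20 libraries, none above a value of 5.84. Hoxa2, which patterns the second branchial arch and the front of the hindbrain, was at 51.2, 28.2, 14.3 and 36.8, and at no more than 5.74 in the other 20. Hoxa3, active from the middle of the hindbrain backward, was at 90.6, 30.4, 18.7 and 51.2. It reached 3.83 in the other 20. Each of the 3 was higher in all 4 libraries than in any of the 20.

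Hoxb1, of paralog number 1 like Hoxd1, marks a single hindbrain segment in the embryo. It had no read in the 4 libraries and 3 reads in all, in P14 WT 1 and P14 WT 2. Hoxb2 was at 4.46 to 23.7 in the 4 libraries, and Hoxb3 and Hoxd3 at 5.35 to 72.9.

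Paralog numbers 4 and 5 are expressed from the rear of the hindbrain into the cervical cord, and they held most Hox RNA. Hoxa5, needed for the circuits that drive breathing, was at 359.6, 163, 15.2 and 152 in the 4 libraries. Hoxb5 was at 319, 166, 44.6 and 143. Hoxc4 was at 177, 116, 49.0 and 109. All 3 were at 0 in 18 of the other 20 libraries and at no more than 1.21 in the rest. Among the other 4 members, Hoxa4, Hoxb4 and Hoxc5 were at 14.3 to 85.7 in the 4 libraries. Hoxd4 was lower, at 7.88, 4.34, 0 and 5.38.

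Paralog numbers 6 to 8 are expressed mainly from the cervical into the thoracic cord, and here the 4 libraries parted. Hoxb8 was at 344 in P14 WT 3, 48.8 in P14 KO 1, 0.89 in P25 WT 3 and 8.97 in P25 KO 2. Hoxb6 was at 123, 41.2, 0 and 22.4. Hoxb7 was at 37.4, 9.77, 0 and 3.59. P25 WT 3 thus had no read of Hoxb6 or Hoxb7 and 1 of Hoxb8, all under the floor of 3 reads. Hoxa6, Hoxc6 and Hoxa7 were also highest in P14 WT 3, at 14.8 to 19.7. They were at 2.17 to 6.51 in P14 KO 1, 0.9 to 4.49 in P25 KO 2 and 0 to 0.89 in P25 WT 3. Outside P14 WT 3, Hoxc6 and Hoxa7 had 3 reads or fewer in each of these libraries, which gives no order. In the other 20 libraries Hoxb8 reached 2.42, Hoxb6 1.13 and Hoxb7 0. Hoxd8 behaved differently from its paralog Hoxb8: it had 39 reads over 14 of the 20 and was at 16.8, 1.09, 1.78 and 1.79 in the 4.

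Paralog numbers 9 to 13 specify the lower trunk, limbs and tail, and were almost absent. The 16 members had 90 reads in the whole series. Hoxc9, which has a part in setting motor neuron columns of the thoracic cord, was at 2.96, 5.43, 0.89 and 0.9 in the 4 libraries and at 0 to 3.36 in the other 20, so the ranges overlapped. Hoxd13, a gene of digits and hind body, was at 4.93, 6.51, 2.67 and 4.49 (5, 6, 3 and 5 reads) and at no more than 1.17 in the 20. No other member of numbers 10 to 13 exceeded 1 read in any of the 4.

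Levels of different genes can be set beside each other only per length. Per kilobase of exon, Hoxa5 led in P14 WT 3 (192), P14 KO 1 (86.7) and P25 KO 2 (80.8), and Hoxc4 led in P25 WT 3 (19.1). Hoxb8 was second in P14 WT 3 (130) and outside the first 6 in the other 3 libraries. Hoxa4 and Hoxb5 were among the first 6 in P14 WT 3, P14 KO 1, P25 WT 3 and P25 KO 2 alike.

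**Figure D2:**
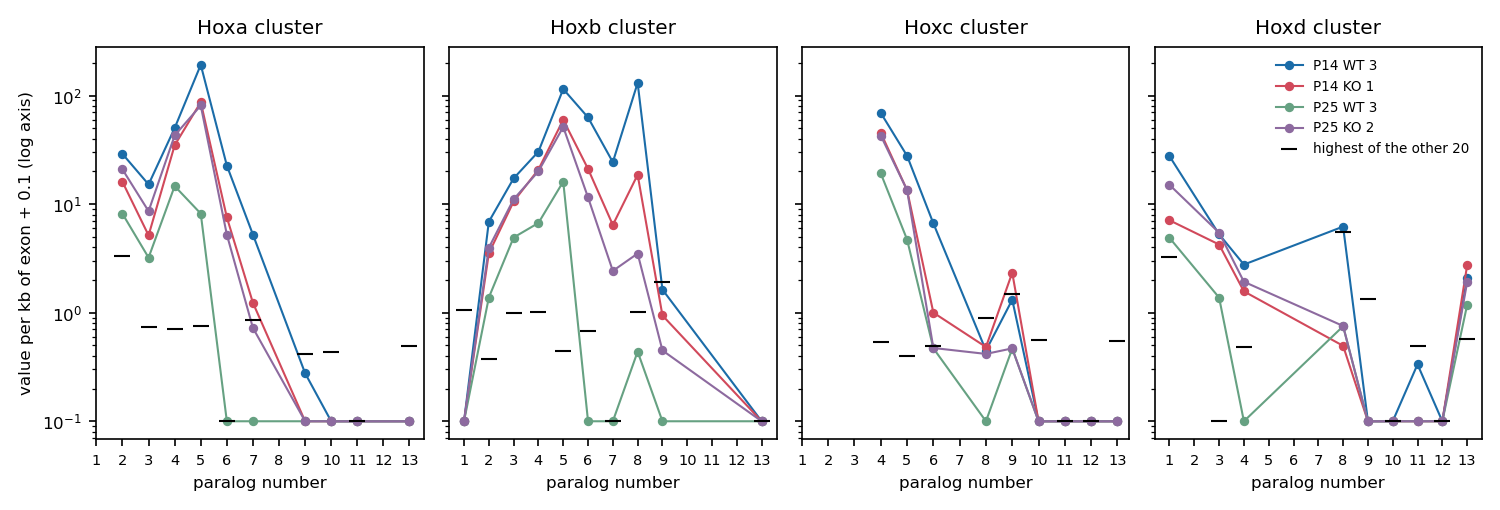
Deposited value per kilobase of exon + 0.1 (log axis) against paralog number, by cluster, in the 4 libraries with most Hox RNA; dashes mark the highest value among the other 20 libraries. In Hoxa the level peaks at number 5 in P14 WT 3, P14 KO 1 and P25 KO 2; in Hoxb it peaks at Hoxb8 in P14 WT 3 (130) and at Hoxb5 in the other 3 libraries (16.0 to 59.6).

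The makeup of the Hox RNA differed between the 4 libraries by more than counting error. Numbers 6 to 8 made up 28.2% of the Hox reads of P14 WT 3 (exact 95% interval 26.3 to 30.2, 2057 reads), 12.9% in P14 KO 1 (10.7 to 15.4, 813 reads), 5.39% in P25 KO 2 (4.03 to 7.04, 928 reads) and 1.44% in P25 WT 3 (0.393 to 3.64, 278 reads). Numbers 1 to 3 ran the other way in order, at 16.4%, 17.6%, 25.4% and 31.3%, although the first pair of intervals overlapped (14.9 to 18.1 and 15.03 to 20.4), as did the last (22.7 to 28.4 and 25.9 to 37.1). Numbers 4 and 5 held 54.6% (52.5 to 56.8), 67.9%, 68.4% and 65.8% (59.9 to 71.4), and numbers 9 to 13 held 0.681% to 1.60%. The intervals cover counting error only, each value is from 1 library, and the 4 libraries differ in age and genotype as well, so nothing about age or genotype can be read from them.

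Set against P14 WT 3, the members did not fall off evenly. Members with at least 15 reads in P14 WT 3 were compared, a rule that favours members high in that library. In P25 KO 2 the 7 such members of numbers 1 to 3 were at 54.3% to 103.5% of their value in P14 WT 3. The 6 of numbers 4 and 5 were at 42.2% to 85.5%, and the 7 of numbers 6 to 8 at 2.61% to 22.8%. Hoxb8 was the lowest of these at 2.61% (exact 95% interval from both read counts 1.24 to 4.86) and Hoxd3 the highest at 103.5% (56.0 to 193). P14 KO 1 ran at 25.4% to 80.1%, 45.3% to 69.4% and 6.48% to 33.5% in the same bands. P25 WT 3 ran at 17.4% to 28.1%, 4.22% to 29.1% and 0% to 10.7%.

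Hoxa5 in P25 WT 3 departed from its paralogs. It was at 4.22% of its level in P14 WT 3 (interval 2.43 to 6.84), while Hoxb5 was at 14.0% (10.2 to 18.9) and Hoxc5 at 16.6% (9.11 to 28.6). In P14 KO 1 and P25 KO 2 the 3 genes lay together, at 45.3% to 52.0% and 42.2% to 48.2%. The departure was seen in 1 library and has no replicate.

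**Figure D3:**
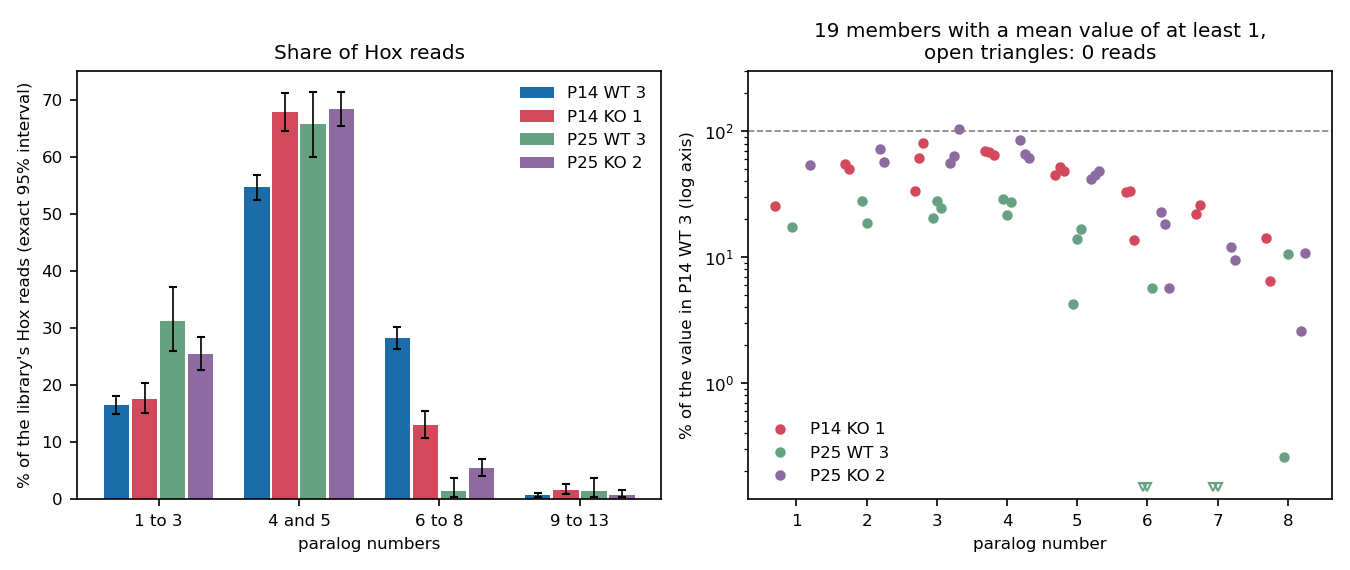
Left, percent of a library's Hox reads in 4 bands of paralog number, with exact 95% intervals, in the 4 libraries with most Hox RNA. Right, the value of 19 members with at least 15 reads in P14 WT 3, as percent of P14 WT 3 (log axis) in the other 3 libraries. The panel title gives a mean of at least 1, but Hoxc6, with a mean of 0.896, is included. The points lie at 54.3% to 103.5% for numbers 1 to 3 in P25 KO 2 and at 2.61% to 22.8% for numbers 6 to 8.

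By cluster, Hoxb held most reads in P14 WT 3 (49.4%, interval 47.3 to 51.6), P14 KO 1 (42.8%, 39.4 to 46.3). Hoxa and Hoxb were at 30.9% and 35.3% in P25 WT 3 and at 39.3% and 34.8% in P25 KO 2, and there their intervals overlapped. Hoxd held least in all 4, at 4.80% to 7.55%.

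Over all libraries Hox RNA did not run with Cbln3 or Emx2, since 5 libraries with high Cbln3 and low Emx2 had little of it. Outside those 5, the same 4 libraries stood apart in Hox RNA, Cbln3 and Emx2 alike. Cbln3, a secreted synaptic protein made almost only by cerebellar granule neurons, was at 2373 or above in 9 libraries and at 51.8 or below in the other 15. The 9 were the 4 with most Hox RNA, at 6083, 10664, 2373 and 25147, and 5 P25 libraries of the second batch (P25 WT 4 to 6, P25 KO 5 and 6), at 54064 to 61110. In those 5 the Hox sum was 4.9 to 24.9, which overlaps the 3.42 to 23.6 of the 15 libraries with little Cbln3 (18.3 to 51.8).

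Emx2, a homeobox gene of the cortex and hippocampus, was at 267.5 to 1192 in those 15 libraries and at 0 to 3.89 in the 5. In the 4 Hox-rich libraries it was at 56.2, 74.9, 199.7 and 31.4, lower than in any of the 15 and higher than in any of the 5. High Cbln3 was thus seen with and without Hox RNA. All 4 libraries with a Hox sum above 100 had Cbln3 of at least 2373 and Emx2 of at most 199.7. In bulk tissue, fewer cells of a type and less RNA per cell cannot be told apart.

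**Figure D4:**
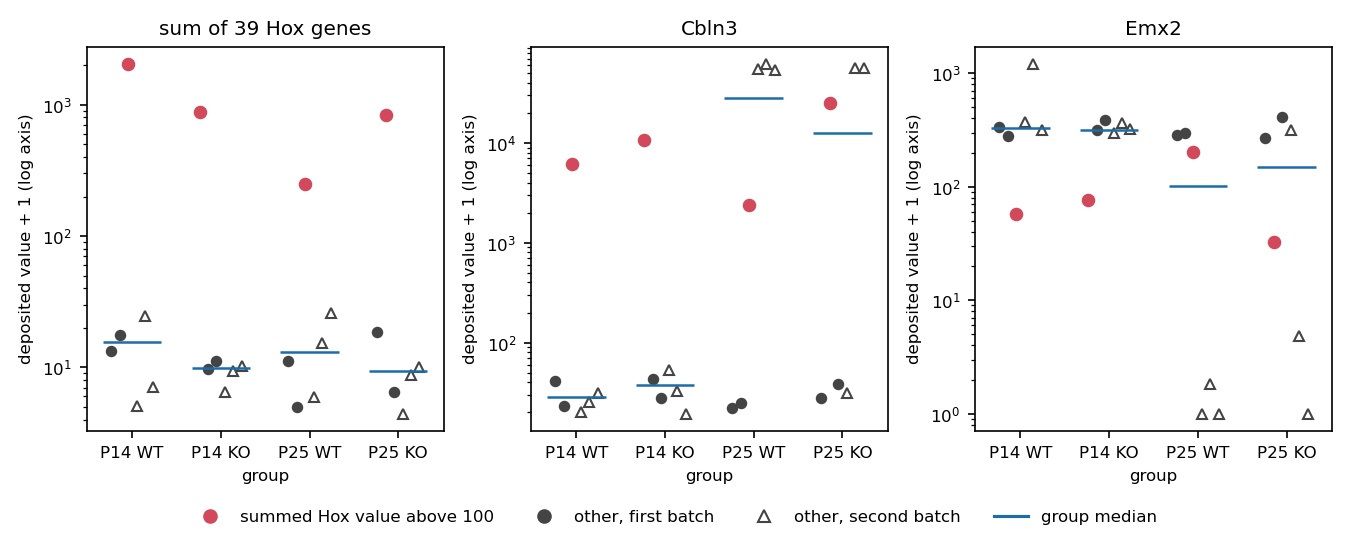
Deposited value + 1 (log axis) of the summed Hox genes, Cbln3 and Emx2 in each library, by group; lines are group medians. The 4 red libraries (Hox sum 248 to 2027) have Cbln3 of 2373 to 25147 and Emx2 of 31.4 to 199.7, and the 5 P25 second-batch libraries with Cbln3 of 54064 to 61110 have Hox sums at or below 24.9.

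The cluster neighbours Evx1 and Evx2, homeobox genes at the far ends of Hoxa and Hoxd that mark commissural interneurons of the spinal cord and hindbrain, were also high in the same 4 libraries. Evx1 was at 35.5, 28.2, 26.8 and 30.5, and at 0 to 3.52 in the other 20. Evx2 was at 43.4, 54.3, 43.7 and 55.6, and at 0 to 13.3 in the other 20. Across the 4 libraries both genes varied by far less than the Hox sum, which was 248 to 2027.

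Of 19 noncoding and Evx genes of the clusters found in the table, out of 21 listed, 6 were higher in each of the 4 libraries than in any of the 20: Hoxaas2, Hoxb3os, Hoxb5os, Haglr, Evx1 and Evx2. Hoxaas2, an antisense RNA of the Hoxa cluster that overlaps Hoxa3, was at 24.97 to 70.0 and at no more than 5.74 in the other 20. Haglr, a long noncoding RNA beside Hoxd1, was at 81.8, 39.1, 21.4 and 44.0, and at no more than 10.2 elsewhere. The nearest genes beyond the clusters were read as well, up to 2 on each side. Of 14 such genes other than Evx1 and Evx2, 1 was higher in all 4 libraries than in all 20: Skap2, an adaptor protein and the nearest gene on one side of the Hoxa cluster, at 332 to 476 against 141 to 306. Hibadh, Snx11, Calcoco1, Atp5g2, Smug1, Cbx5, Mtx2 and Hnrnpa3 varied 1.41- to 1.83-fold over all 24 libraries, Lnpk 2.51-fold and Snx10 3.79-fold. Ttll6, beyond Hoxb, was at 27.6 to 49.3 in the 4 and at 1.05 to 2011 in the 20.

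Among 39 members, 14 were higher in each of the 4 libraries than in all 20, and 13 of these have paralog numbers 1 to 5, which hold 15 members; the other was Hoxd13. Over genes with a mean of at least 10, 143 of 18267 (0.783%) were higher in all 4 than in all 20 and 71 (0.389%) were lower. Of the 4 members past that minimum, Hoxa5, Hoxb5 and Hoxc4 were so and Hoxb8 was not, because of P25 WT 3. The 4 libraries were picked by their Hox sum, so these counts describe them and test nothing.

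Markers of the rear brainstem stood high in the same libraries. For 18 genes of medulla and pons neurons the summed value was 6455 to 10563 in the 4 libraries, 1744 to 2241 in the 5 with most Cbln3 and 297 to 1239 in the other 15. Of the 18, 9 were higher in all 4 than in all 20, among them Slc6a5 and Slc6a4. Slc6a5, the glycine transporter of inhibitory hindbrain neurons, was at 1692 to 5903 in the 4. It was at 1283 to 1539 in the 5 and at 1.99 to 65.7 in the 15. Slc6a4, the serotonin transporter, was at 822 to 1415 in the 4 and at 0 to 43.7 in the 20. It was highest in P25 WT 3, which had the lowest Hox sum of the 4. Of 10 spinal cord genes only Lhx4 was higher in all 4 than in all 20 (27.1 to 65.0 against 0 to 5.87). Mnx1, which defines spinal motor neurons, was at 0 to 2.17 in the 4. Sums of lists for other regions were high too, but some of their genes also mark other tissues. Midbrain genes summed to 4748 to 5561 in the 4, 6459 to 9197 in the 5 and 104 to 3693 in the 15. That sum includes En2, which is also in the list of cerebellar granule neurons. En2 alone was at 537 to 3383 in the 4, 6095 to 7845 in the 5 and 3.06 to 123 in the 15. Thalamus and hypothalamus genes summed to 10912 to 19096 in the 4, 16870.5 to 17379 in the 5 and 2747 to 7883 in the 15. That list shares Rora with the Purkinje list and Pomc with the pituitary list. The 19096 was in P25 WT 3, where the pituitary list summed to 91722. P14 WT 3, P14 KO 1 and P25 KO 2 were at 10912, 12377 and 11626. Of 10 oligodendrocyte genes, 2 were higher in all 4 than in all 20: Mog and Mbp (216356 to 430484 against 21520 to 190826). The part of all these genes in the Hox levels was not tested.

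Over the 24 libraries, genes outside the clusters whose log2 level was most like that of the Hox sum included Mtap (Pearson r = 0.906), P2rx5 (0.904), Nefh (0.891), March8 (0.878), Wipf1 (0.866), Pax8 (0.864), Gng11 (0.864), Plod1 (0.862) and Kank4 (0.862). Within the other 20 libraries r was lower for each of them, from 0.119 for Pax8 and 0.122 for Nefh to 0.534 for Mtap and 0.656 for March8. Nefh, the heavy neurofilament of thick axons, was at 9098 to 17201 in the 4 and 1595 to 4088 in the 20. These correlations describe libraries that share tissue makeup and depth, and carry no p.

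KO against WT was compared at each age with limma on log2(value + 1) over 18267 genes with a mean of at least 10, with a batch term. In P14 WT the Hox sum ran from 4.03 to 2027 with a median of 14.5, and in P14 KO from 5.51 to 882 with a median of 8.93. In P25 WT it ran from 3.98 to 248 (median 12.2) and in P25 KO from 3.42 to 833 (median 8.45). All 4 groups overlapped, and each had 1 library far above its other 5. Means were 348 ± 822 and 154 ± 357 at P14 for WT and KO and 51.0 ± 96.8 and 146 ± 337 at P25 (SD, n = 6). Without the library that was highest in each group, the means became 12.6 ± 7.97, 8.38 ± 1.74, 11.6 ± 8.49 and 8.68 ± 5.44 (SD, n = 5).

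None of the 4 members tested passed the threshold (adjusted p under 0.05) for KO against WT at P14 or at P25, and neither did any other gene (0 of 18267, 0%, in both; 554 and 98 genes had an unadjusted p under 0.05, no member among them). DESeq2 on the recovered reads called 1 gene at P14 and 4 at P25, and edgeR called none, members included. DESeq2 gave none of the 4 members an adjusted p, so it has no say on them. At P14 the log2 difference KO minus WT was −0.20 (SE 1.46) for Hoxa5, −0.16 (1.52) for Hoxb5, 0.08 (1.41) for Hoxc4 and −0.94 (1.12) for Hoxb8. At P25 it was 0.54, 0.27, 0.03 and 0.73 with the same standard errors, and the limma adjusted p was 1 for each gene at both ages. Standard errors above 1 on the log2 scale leave room for differences of several fold either way.

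For Hoxa5, Hoxb5 and Hoxc4 the sign of the KO difference depended on single libraries. Without P14 WT 3 the difference at P14 became 1.04 for Hoxa5, 1.09 for Hoxb5 and 1.18 for Hoxc4, and without P14 KO 1 it became −1.23, −1.23 and −0.87. Hoxb8 fell below the mean of 10 without P14 WT 3 and could not be tested. Without P25 KO 2 the difference at P25 became −0.59, −0.82 and −1.02, and without P25 WT 3 it became 1.07, 1.06 and 0.83. Hoxb8 kept its sign in the 23 fits that could test it, at −1.74 to −0.48 at P14 and 0.27 to 1.01 at P25. With all 4 libraries left out, no member reached a mean of 10. In the first batch alone 11 members were tested and 0 were called in any of the 5 contrasts, and in the second batch alone no member could be tested.

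**Figure D5:**
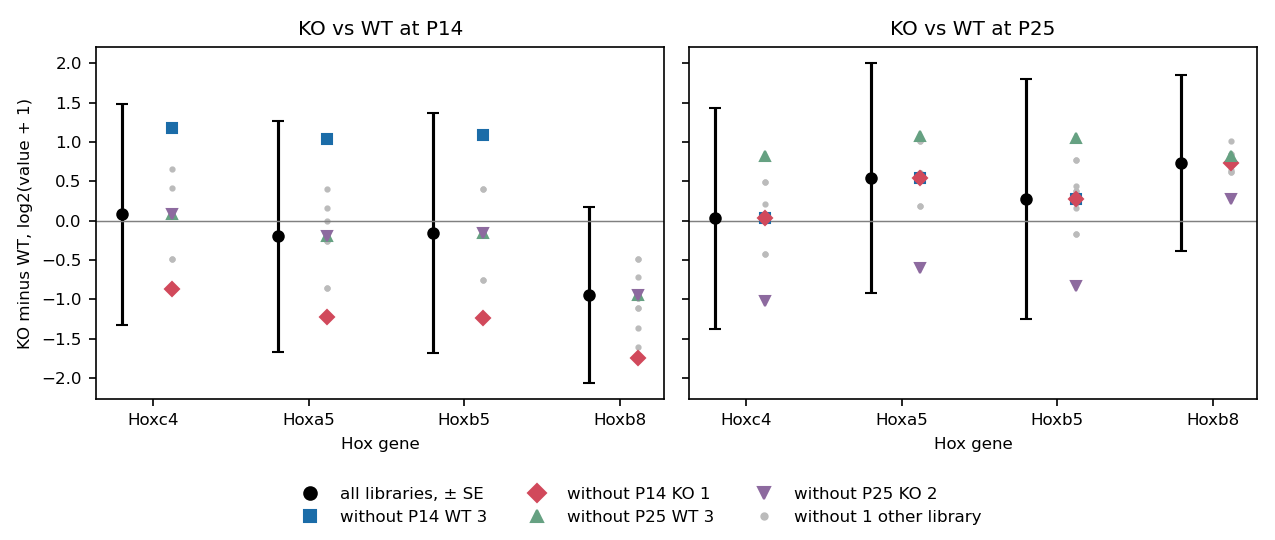
KO minus WT on the log2(value + 1) scale for Hoxc4, Hoxa5, Hoxb5 and Hoxb8 at both ages, with all libraries (black, ± SE) and leaving out 1 library at a time (other symbols). For the first 3 genes at P14 the value moves from between −1.23 and −0.87 without P14 KO 1 to between 1.04 and 1.18 without P14 WT 3.

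The difference of the KO effects between the ages was 0.74 (SE 2.07) for Hoxa5, 0.43 (2.15) for Hoxb5, −0.05 (1.99) for Hoxc4 and 1.67 (1.58) for Hoxb8. No member and no other gene was called (0%; 189 genes with an unadjusted p under 0.05, no member among them; edgeR 0 genes, DESeq2 1 gene). Age was compared within each genotype, and these contrasts share the KO and WT libraries with those above. In WT, P25 against P14, 0 of the 4 members and 5134 genes (28.1%) were called. Hoxb8 had a difference of −1.73 (SE 1.12, limma adjusted p = 0.242), with P14 WT 3 at 344 and every P25 WT library at or below 0.89. In KO, 0 members and 2163 genes (11.8%) were called, and the 4 member differences lay between −0.20 and 0.12.

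Between the batches no member passed the threshold at either age, and all differences were below 0. At P14 the second-minus-first difference was −2.63 for Hoxa5, −2.62 for Hoxb5, −2.57 for Hoxc4 and −2.23 for Hoxb8 (limma adjusted p 0.282 to 0.367), where 995 genes (5.45%) were called. At P25 it was −1.88, −1.80, −1.91 and −0.73 (adjusted p 0.27 to 0.614), where 8565 genes (46.9%) were called. At each age both Hox-rich libraries are in the first batch, and without them no member could be tested. Oligodendrocyte genes, high in the same libraries, were called lower in the second batch for 8 of 10 at P14 and 10 of 10 at P25. Of 16 medulla and pons genes, 0 were called lower at P14 and 8 at P25, where 1 was higher. Over all 18267 genes, 528 were lower at P14 and 4302 at P25. The part of the oligodendrocyte and the medulla and pons genes in the Hox difference was not tested.

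Some members were called between batches under other rules. edgeR on the recovered reads called Hoxb8 at P14 (adjusted p = 0.017, 6.28% of genes called) and Hoxc4 at P25 (adjusted p = 0.0455, 45.2%). With the minimum mean lowered to 1 it called Hoxb8 and Hoxb4 at P14 (2 of 20 members, 5.21% of genes). Of 395 first-batch Hoxb8 reads at P14, P14 WT 3 held 349 and P14 KO 1 held 45. For Hoxb4 these were 79 and 49 of 130. Of 177 first-batch Hoxc4 reads at P25, P25 WT 3 held 55 and P25 KO 2 held 122. These edgeR calls thus rest on the Hox-rich libraries, all in the first batch, and test no batch difference apart from them. limma at a minimum mean of 1 tested 20 members and called Hoxc9 at P14 (adjusted p = 0.0342; 4.92% of genes) and no member in the other contrasts, where 0%, 0%, 0%, 19.6%, 7.17% and 36.8% of genes were called for KO at P14, KO at P25, their difference, age in WT, age in KO and batch at P25. edgeR at that minimum also called Hoxd8 for age in WT (adjusted p = 0.0354; 19.1% of genes). It was at 0 to 16.8 in P14 WT and at 0 to 1.78 in P25 WT, which overlap.

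Without a minimum, limma called Hoxb9 and Hoxc9 between batches at P14 (2 of 33 members, 3.23% of genes) and Hoxb9 at P25 (1 of 33, 24.4%). Hoxb9, a gene of the thoracic cord named here after its values were seen, as were Hoxb4 and Hoxd8, had 19 reads, all in the first batch. It was read in 6 of 6 first-batch libraries at P14, at 1.09 to 3.94, and in 4 of 6 at P25, at up to 4.69. All 12 second-batch libraries were at 0. Most of these values are at or below what 3 reads give. Unlike Hoxa5 or Hoxc4, Hoxb9 was not confined to the Hox-rich libraries: 12 of its reads were in 7 of the other 20. Hoxc9 was read in 6 of 6 first-batch libraries at P14 (16 reads) and in 3 of 6 of the second (4 reads), and at P25 in 4 and 5 of 6.

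Genes that work with or on Hox genes were read from fixed lists. Of 9 cofactors of the TALE homeodomain class, which bind DNA together with Hox proteins, 0 were called for KO at either age, 2 were lower at P25 than P14 in WT and 1 in KO (28.1% and 11.8% of all genes called), and 3 were higher and 3 lower in the second batch at P25 (46.9%). Meis2 was at 1686 to 2749 in the 4 Hox-rich libraries, 18.8 to 168 in the 5 with most Cbln3 and 2238 to 15975 in the rest. Of 21 chromatin regulators of Hox genes (Polycomb and trithorax proteins and related enzymes) 0 were called for KO. With age, 8 were higher and 1 lower in WT, and 4 higher and 1 lower in KO. The shares of all genes called in either direction were 28.1% and 11.8%. In the second batch at P25, 16 of the 21 were higher and 0 lower. Over all 18267 genes, 4263 were higher and 4302 lower there (46.9% in either direction). The summed value of the 21 regulators was 66144 to 75096 in the 5 P25 second-batch libraries with most Cbln3. It was 35098 to 49651 in the other 15 and 39945 to 51145 in the 4. The part of that difference in the counts was not tested. Kmt2a, a trithorax methyltransferase, was at 4739 to 8134 in the 4 libraries and 4624 to 11548 in the other 20. Of 8 tested upstream regulators, out of 15 listed, 0 were called for KO and 3 were lower with age in WT (28.1% of all genes called). The median KO difference of these 3 lists lay between −0.13 and 0.18 at P14 and between −0.02 and 0.09 at P25, beside 0.00 over all genes.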

How the data were processed

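RNA was measured in 24 mouse brain libraries in 4 groups of 6. Libraries were made with an Illumina TruSeq RNA kit, per the labels' protocols. The tools named are Trimmomatic 0.35, TopHat2 2.1.0, HTSeq and DESeq2, with the build GRCm38, per the submitters' processing notes, which give no order or role here. No source used here gives the annotation release, strand setting or filters. The deposited table holds a signal per gene, read counts that the authors divided by 1 size factor per library (0.825 to 1.223); this was read from the values. Every nonzero value was a whole multiple of its library's step within 0.01 (100%), so reads were recovered, 27552844 to 40787586 per library over genes. No sample column was left unused (0). Of 46078 identifiers, 45143 (98%) matched a symbol in GENCODE M21.

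Levels are deposited values. Shares carry exact 95% binomial intervals (Clopper-Pearson) on reads; intervals and the 3-read floor cover counting error only. Tests used limma 3.58.1 (R 4.3.3) with an intensity trend on log2(value + 1), a scale that understates changes of low genes, for 18267 genes with a mean of at least 10, with 4 group means and 1 batch term per age (18 residual degrees of freedom) and Benjamini-Hochberg adjustment at 0.05. The plan named this fit for normalised values. The fits were tested on simulated data with known changes between KO and WT. Alternatives were edgeR 4.0.16 and DESeq2 1.42.0 on recovered reads, TMM scaling, minimum means of 1 or none, pseudocounts 0.1 and 5, a replicate block, each batch alone, leaving out each library, no term for batch, and fits on just the groups of a contrast. Members named are, per paralog number, the one with the highest mean if at least 1, and any called; other lists name at most 4 genes by mean value; any gene beyond this was named after its values were seen. Members and lists were chosen with earlier results of these data known. The design text counts 6 mice per group. The descriptions of each same-numbered WT and KO library open with the same code, and replicates 4 and 5 at P14 share one code; the labels do not say what it marks. So p-values measure the spread between these libraries. Replicate numbers were not taken to pair samples. A block on them was fitted for the KO contrasts only, where calls were 0 with and without it. The age and batch contrasts were not blocked. Some genes, 1 of them a member, are not reported here by name and are left out of the plots of single genes; sums and counts include them.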

Additional observations from a re-analysis of the deposited data

Results flagged for a closer look

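In a group of 6 libraries, a value was picked out when its gap to the nearest other library took up more of the group's range than Dixon's 95% critical value allows. Of 52 sets of 6 values looked at (the Hox sum, 10 members, Cbln3 and Emx2 in each group), 41 values were picked out, and 39 of them belong to the 4 libraries with a Hox sum above 100. For normally distributed values the rule picks out about 1 in 20 sets. Many sets here hold zeros and few reads, where 1 read can be picked out, so that rate does not apply. Members were also named by their mean over all libraries, which the 4 libraries raise. The sets are not independent because the same libraries recur, so the count is a description only.

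The Hox sum was picked out in all 4 groups, at 2027 in P14 WT 3, 882 in P14 KO 1, 248 in P25 WT 3 and 833 in P25 KO 2, where the next library of each group was at 23.6, 10.2, 24.9 and 17.6.

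In P14 WT 3 the members were Hoxd1 at 51.2, Hoxa2 at 51.2, Hoxa3 at 90.6, Hoxc4 at 177, Hoxa5 at 359.6, Hoxb5 at 319, Hoxb6 at 123, Hoxb7 at 37.4 and Hoxb8 at 344. In P14 KO 1 they were Hoxd1 at 13.0, Hoxa2 at 28.2, Hoxa3 at 30.4, Hoxc4 at 116, Hoxa5 at 163, Hoxb5 at 166, Hoxb6 at 41.2, Hoxb7 at 9.77 and Hoxb8 at 48.8. In P25 KO 2 they were Hoxd1 at 27.8, Hoxa2 at 36.8, Hoxa3 at 51.2, Hoxc4 at 109, Hoxa5 at 152, Hoxb5 at 143, Hoxb6 at 22.4, Hoxb7 at 3.59 and Hoxb8 at 8.97. In P25 WT 3 they were fewer: Hoxa3 at 18.7, Hoxc4 at 49.0, Hoxa5 at 15.2, Hoxb5 at 44.6 and Hoxb8 at 0.89, the last being 1 read where the other 5 libraries had none.

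Cbln3 was picked out in P14 WT 3 at 6083 and in P14 KO 1 at 10664, where the next libraries were at 40.3 and 51.8. Emx2 was low in P14 KO 1, at 74.9 beside a next value of 295. Outside the 4 libraries, Emx2 was high in P14 WT 5 at 1192, with the next library at 369.99, and Hoxc9 was at 2.87 (3 reads) in P25 WT 6, with the next library at 1.0.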

How the results depend on the processing

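Members called stayed at 0 in all 7 contrasts when any 1 library was left out, and in every contrast these fits give under TMM scaling, both other pseudocounts, no batch term and the fit on only the groups compared. Between batches at P14 the count became 1 with edgeR, 1 at a minimum mean of 1, 2 with no minimum and 2 with edgeR at a minimum mean of 1; at P25 it became 1 with edgeR and 1 with no minimum; for age in WT it became 1 with edgeR at a minimum mean of 1. DESeq2 gave none of the 4 members an adjusted p in any contrast and yields no count for them. In the second batch alone, and without the 4 Hox-rich libraries, no member could be tested. These last fits (without the 4, and edgeR or DESeq2 at a minimum mean of 1) were added after seeing the data.

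Genes called for KO were 1 at P14, 4 at P25 and 1 for their difference with DESeq2, and 1, 5 and 1 with DESeq2 at a minimum mean of 1; leaving out 1 library gave 0 to 1 at P25 (1 without P14 WT 5). For age in KO, 2163 became 3374 with DESeq2, 3315 with DESeq2 at a mean of 1, 1311 with no minimum, 444 without a batch term, 334 with only the groups compared, 45 in the first batch, 0 in the second and 1269 without the 4 libraries, and 812 to 6858 leaving out 1 library (over 1.5 times from 2163 without P14 KO 2 or 3 or P25 KO 2, 3, 4, 5 or 6; lowest without P25 KO 5, highest without P25 KO 4). For age in WT, 5134 became 1649 without a batch term and 53 in the first batch, and 3289 to 6585 leaving out 1 library (over 1.5 times lower without P25 WT 4 or 5). For batch at P14, 995 became 1892 with DESeq2, 2059 with DESeq2 at a mean of 1, 351 with only the groups compared and 359 without the 4 libraries, and 493 to 1443 leaving out 1 (over 1.5 times from 995 without P14 WT 3 or P14 KO 1, 4 or 6). The cause was not tested.

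The Hoxc4 difference for KO turned at P14 with edgeR (−0.57; −0.60 at a mean of 1), DESeq2 (−0.59; −0.60) and pseudocount 5 (−0.0494), and at P25 with DESeq2 (−1.17; −1.18) and pseudocount 0.1 (−0.37). Leaving out 1 library gave −0.87 to 1.18 at P14 and −1.02 to 0.83 at P25 for Hoxc4, −1.23 to 1.04 and −0.59 to 1.07 for Hoxa5, −1.23 to 1.09 and −0.82 to 1.06 for Hoxb5, and −1.74 to −0.48 and 0.27 to 1.01 for Hoxb8. The Shank2 log2 difference was −1.11 to −0.73 at P14 (exact permutation p 0.02 to 0.07, above 0.05 in 5 of 12 such fits: without WT 4 or 6, or KO 1, 2 or 3) and −1.43 to −1.18 at P25. With TMM scaling the 4 highest Hox sums were 2046, 900.3, 251 and 849, and the other 20 were 3.43 to 25.2.

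With the replicate number as a block, 0 members and 0 genes were called for KO at either age. Same-numbered libraries correlated at −0.28 to 0.50 at P14 and −0.60 to 0.86 at P25. Differently numbered ones also reached 0.86 (P14 WT 3 with P14 KO 1), so these correlations cannot show whether the numbers mark pairs. Each same-numbered WT and KO pair shares the opening code of its label, whose meaning is not given. The main fit and the Shank2 test took no pairing into account. Within 1 library, depth limits each member to 3 reads, a value of 2.45 to 3.64. Differences between groups of libraries could be called near or below that. Hoxb9, at 1.09 to 3.94 against 0 between batches at P14, was called without a minimum mean.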

Other observations

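P25 WT 3 stood apart in pituitary hormone genes as well as in Hox genes. Gh, growth hormone, was at 72845 there and at 0 to 47.6 in the other 23 libraries, and Pomc and Prl were at 13131 and 3576. The sum of 10 pituitary genes was 91722 there and 61.1 to 285 in the others.

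P25 KO 1, whose Hox sum was 17.6, had values above the other libraries of low Cbln3 for several genes that were high in the 4 Hox-rich ones. P2rx5 was at 130, against 24.2 to 45.9 in the other 14, Slc6a5 at 65.7, Evx1 at 3.52 and Evx2 at 4.69. Its reads for members were led by Hoxd1 and Hoxb9 at 4.69 each.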
